A study of Mus musculus with 2 samples.

Results

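Open chromatin was examined around 8 genes for nuclear factors that hold blood stem cells back from, or steer them along, particular lineages: Gfi1, Gfi1b, Myb, Etv6, Ikzf1, Ikzf2, Satb1 and Zeb2. They were taken by name from the 21887 protein-coding genes of the RefSeq annotation on chromosomes 1 to 19, X and Y of mouse build mm10. For each gene, the accessible regions in a window of the gene body plus 50 kb on each side were read from the list deposited for each library. The windows held 12 of the 13012 regions of the H1C library and 48 of the 31843 regions of the control library on these chromosomes.

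Both libraries were made by ATAC-seq, in which a transposase inserts sequencing adapters into accessible DNA, from hematopoietic stem cells of wild-type C57BL/6J mouse bone marrow sorted as CD48-CD150+LSK. The H1C cells had been transduced with the MSCV-H1C retrovirus and the control cells with the pMSCV retrovirus. H1C, whose gene is now called H1f2, is a linker histone, a protein that sits on the nucleosome where its DNA enters and exits and helps to compact chromatin. Each group held 1 library of about 1000 cells, so the spread between samples is unknown and no test between groups was possible. The number of animals, the promoter that drives H1C within the vector and any selection of transduced cells are not stated in the labels. Over all protein-coding genes, 33.6% had a region within 1 kb of a gene end in H1C and 46.9% in control. Of 7 stem cell marker genes, 0 had one in H1C, against 4 in control (Kit, Ly6a, Slamf1 and Hlf). Procr, Mecom and Hoxa9 had none in either library. The 4 control regions were weak, with summit pileups (defined below) of 24, 28, 18 and 20. Over all control gene-end regions, 93.9% with a pileup up to 20 were called in control only. From above 20 up to 30 the share was 81.0%. Of 4 B cell markers, 1 had a gene-end region in H1C (Cd79a) and 3 in control (Cd79a, Pax5 and Ebf1). Of 4 T cell markers, 0 had one in H1C and 1 in control (Cd3e), and of 4 erythroid markers, 0 had one in H1C and 1 in control (Epor). The 4 myeloid markers had none in either library. The part of other cell types in the results was not tested.

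Gfi1 and Gfi1b are closely related zinc finger repressors that recruit the LSD1-CoREST histone demethylase complex and keep stem cells from dividing or differentiating too readily. Myb is a DNA-binding factor of progenitor growth, known as an activator as well as a repressor, and Etv6 is a repressor of the ETS family needed for stem cells to persist in the marrow. Ikzf1 (Ikaros) and Ikzf2 (Helios) are zinc finger factors that work with the NuRD remodelling complex, Ikaros above all in lymphoid development. Satb1 organises chromatin loops in lymphoid cells and stem cells, and Zeb2 is an E-box-binding repressor that works with CtBP corepressors.

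The summit pileup is the number of fragments or reads stacked at the highest point of a region, solved from the deposited values. The fold is the authors' ratio of that pileup, plus 1, to the background expected locally in that library, plus 1, and −log10 q is the authors' measure of how firmly the region was called. Fold and −log10 q describe a region within its own list. To compare pileups, the H1C over control ratio was divided by the ratio of genome backgrounds, 1.10 (4.40 in H1C and 3.99 in control), and is called the depth-scaled ratio. Its 95% interval is exact and covers counting error only. A region is called kept when at least 1 bp of it overlapped a region of the other library.

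Promoter sequences of 4 genes are shown as examples, because the accessible regions at gene ends divided them. Those of Etv6 and Satb1 had a called region in both libraries, and those of Gfi1b and Ikzf1 in control alone. A promoter without a called region is not shown to be closed. Gfi1, Myb and Zeb2 also had gene-end regions in control only, and their sequences are not shown. Another annotated start of Satb1, also not shown, was touched in control only, by the control region that also reached the start shown. Each runs 5′ to 3′ from 250 bases before to 50 bases after an annotated transcription start (RefSeq, GRCm38.p6). Capitals mark matches, on either strand, to 5 short core motifs of factors in these families: GGGAA (Ikaros), CACCTG (ZEB), AAATCA (GFI1), AACNG (MYB) and CCGGAA (ETS). Overlapping matches run together, as GGGAA and AACNG do in Gfi1b. The Gfi1b window is chr2:28621933-28622232 on the minus strand, that of Ikzf1 is chr11:11685675-11685974 on the plus strand, that of Etv6 is chr6:134035450-134035749 on the plus strand, and that of Satb1 is chr17:51833241-51833540 on the minus strand.
Gfi1b: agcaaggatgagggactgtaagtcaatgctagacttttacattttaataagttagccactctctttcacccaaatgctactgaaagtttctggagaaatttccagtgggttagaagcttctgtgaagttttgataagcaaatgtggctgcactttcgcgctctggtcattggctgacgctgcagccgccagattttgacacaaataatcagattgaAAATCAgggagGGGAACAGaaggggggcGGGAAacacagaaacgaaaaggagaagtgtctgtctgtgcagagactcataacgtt
Ikzf1: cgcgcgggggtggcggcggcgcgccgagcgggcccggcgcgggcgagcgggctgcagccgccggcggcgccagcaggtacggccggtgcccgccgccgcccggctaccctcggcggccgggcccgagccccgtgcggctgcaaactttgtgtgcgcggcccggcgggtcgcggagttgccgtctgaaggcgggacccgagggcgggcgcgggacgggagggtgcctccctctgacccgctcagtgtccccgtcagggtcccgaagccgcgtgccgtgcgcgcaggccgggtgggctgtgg
Etv6: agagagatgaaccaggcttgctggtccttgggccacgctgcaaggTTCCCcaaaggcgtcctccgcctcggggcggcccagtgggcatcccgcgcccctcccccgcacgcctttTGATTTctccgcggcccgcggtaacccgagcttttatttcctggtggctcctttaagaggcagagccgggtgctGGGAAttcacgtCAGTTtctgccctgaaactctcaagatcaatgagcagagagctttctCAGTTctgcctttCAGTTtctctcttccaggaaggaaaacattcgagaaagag
Satb1: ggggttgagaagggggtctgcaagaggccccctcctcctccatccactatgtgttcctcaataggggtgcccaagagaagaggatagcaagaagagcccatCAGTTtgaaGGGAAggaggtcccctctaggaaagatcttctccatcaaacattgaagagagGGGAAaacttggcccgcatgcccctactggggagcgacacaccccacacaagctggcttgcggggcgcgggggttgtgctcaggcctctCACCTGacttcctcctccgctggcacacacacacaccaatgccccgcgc

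The sequences differed in CG content and in motif matches without following the division. The Ikzf1 window had 52 CG dinucleotides, more than 99.4% of the 32851 promoter windows of the annotation, and no match to any of the 5 motifs. The Gfi1b window had 7 CG, the same as the median of all windows, with 2 GGGAA, 1 AAATCA and 1 AACNG. The Etv6 window had 17 CG, with 2 GGGAA, 1 AAATCA and 3 AACNG, and the Satb1 window had 8 CG, with 2 GGGAA, 1 CACCTG and 1 AACNG. Over all promoter windows, 62.7% held GGGAA, 80.3% AACNG, 20.2% CACCTG, 14.9% CCGGAA and 14.0% AAATCA, so none of these matches is rare. A match is a run of letters and does not show that a factor was bound.

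Over the 8 windows, regions were fewer in the H1C library, and most of the control regions had no counterpart there. The 12 H1C regions covered 4626 bp and the 48 control regions 17924 bp, with mean widths of 386 bp in H1C and 373 bp in control. In number that is 4.00 times fewer, against 2.39 times fewer over the windows of all protein-coding genes. Of the 48 control regions, 38 were called in control only, against a background of 64.2% over the 28535 control regions of all gene windows. In shares, 20.8% of the control regions were kept here (95% interval 10.5 to 35.0) and 35.8% over all gene windows (35.2 to 36.4). These intervals take regions as independent, while 14 of the 48 control regions lay in the Ikzf1 window. The genes were also chosen with earlier results known. Whether the shares differ was not tested. With the control list shortened to its 13012 regions of highest −log10 p, the length of the H1C list, 16 control regions stood against the 12 H1C regions. Of these 16, 8 were in control only, against a background of 32.0%, and the kept share was 50.0% (24.7 to 75.3), against 68.0% over all gene windows, a difference within counting error. Of the 12 H1C regions, 11 were kept, and 1, at Satb1, was called in H1C only, against a background of 12.7%. H1C had no region in the windows of Ikzf2 and Zeb2, which held 2 and 7 control regions. The same was so of 33.3% of all gene windows, a share not limited to windows with a control region. Of the 21887 genes, 4760 had no control region in the window.

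**Figure D1:**
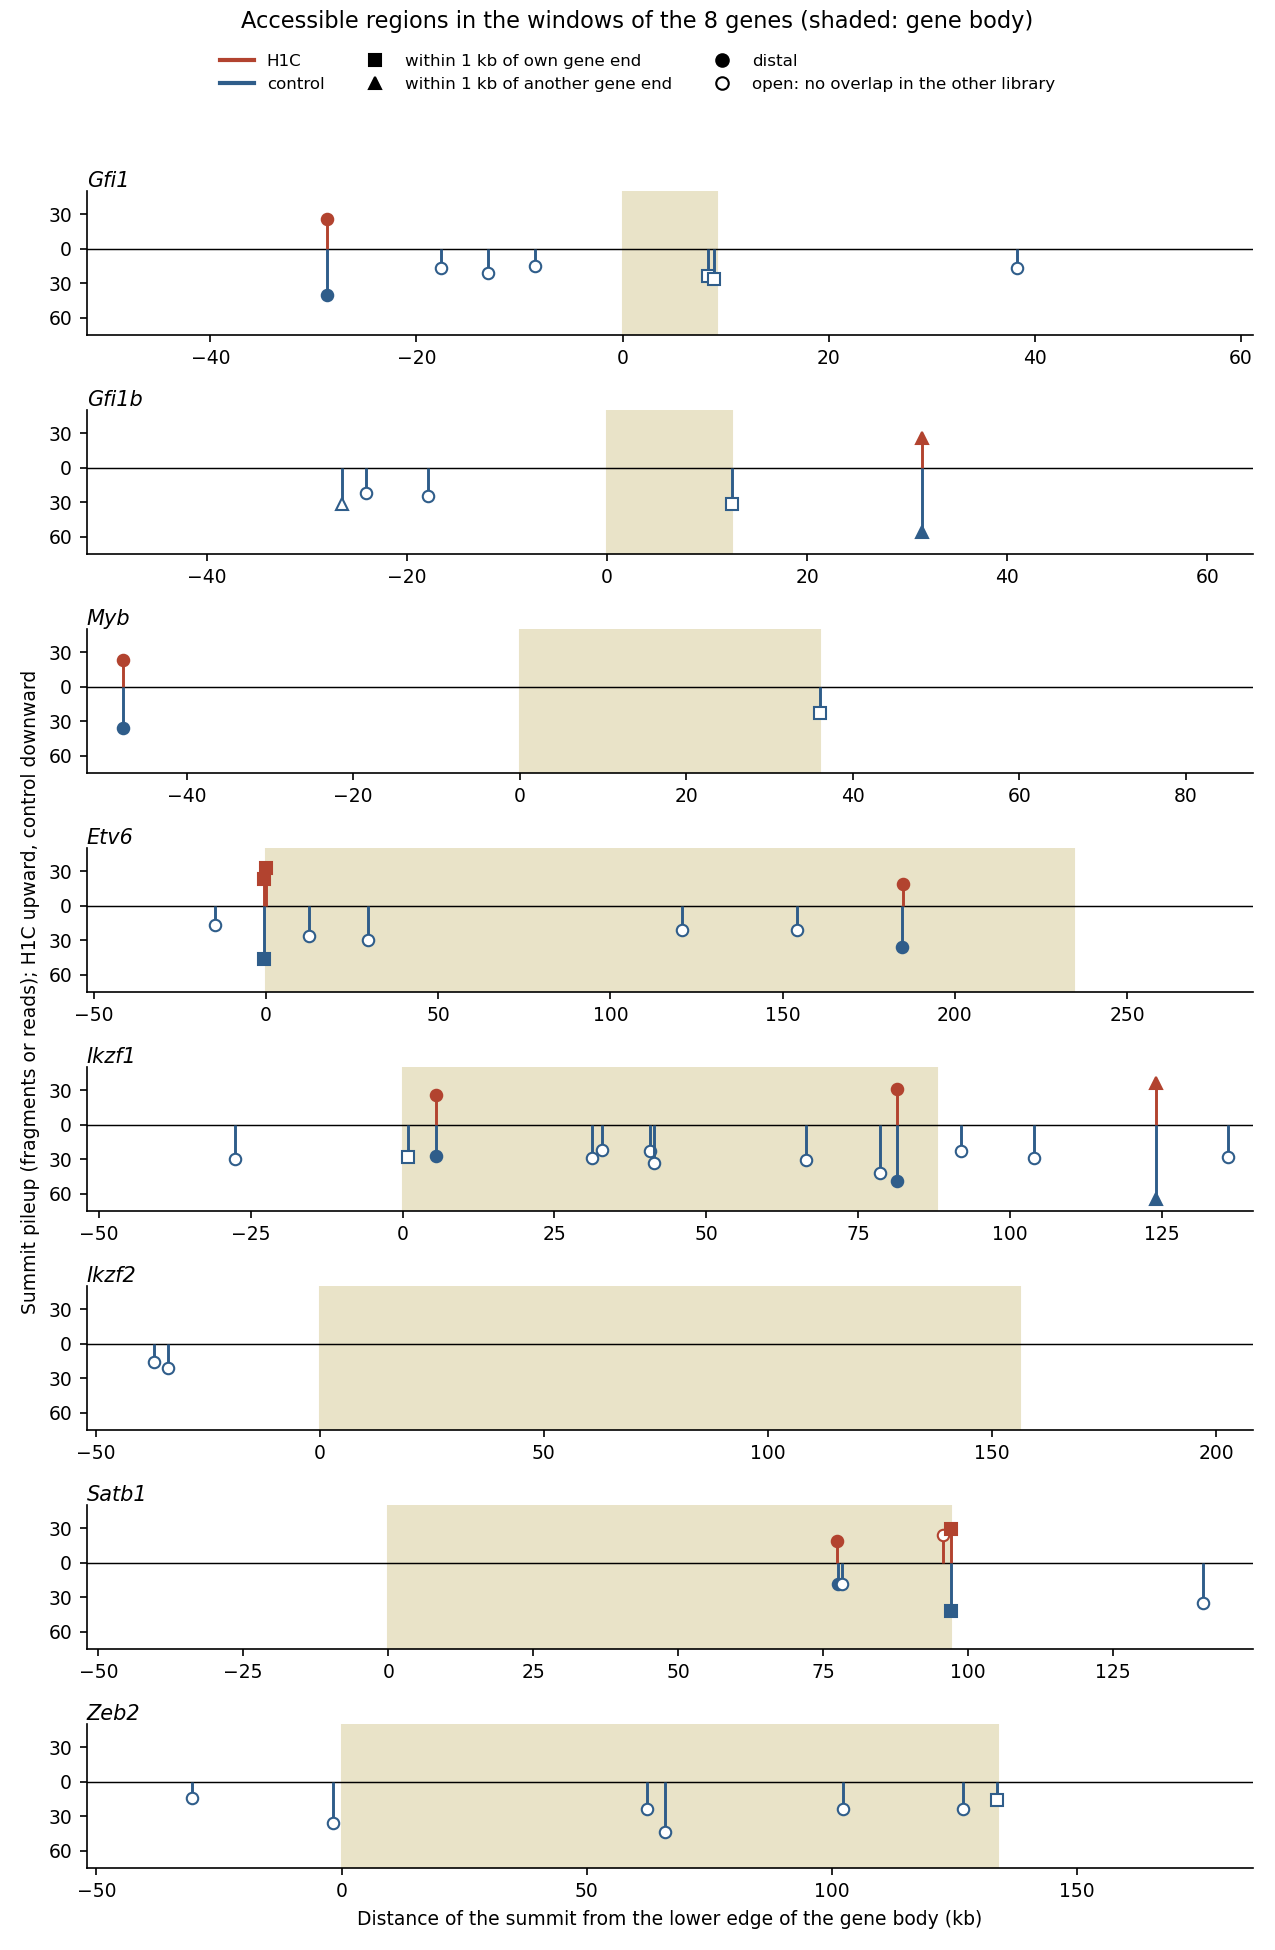
Summit pileup (vertical axis; H1C upward in red, control downward in blue) of each accessible region against its distance in kb from the lower edge of the gene body (shaded), 1 panel per gene. Open symbols have no overlapping region in the other library: all 7 control regions at Zeb2 are open, and the 1 open H1C symbol lies at Satb1.

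Regions at the genes' own ends were weak in control compared with gene ends elsewhere, and 2 of 8 were kept. The median control pileup was 27.0 at these 8 regions and 44.0 at gene-end regions of all gene windows. Called in control only were 6 of the 8, against a background of 37.1% over 10147 control gene-end regions. Counted by gene, 2 of the 8 genes (Etv6 and Satb1) had a gene-end region in H1C and 7 in control. Ikzf2 had none in either library. The gene-end region was thus in control only at 5 of 7 genes, against a background of 29.0% over 10264 genes. The 2 kept regions had the highest control pileups of the 8, 46 at Etv6 and 42 at Satb1, and the 6 others had pileups of 16 to 32. The background at gene ends also went with pileup. The share in control only was 93.9% at control pileups up to 20, 81.0% from 21 to 30, 54.0% from 31 to 40 and 16.5% from 41 to 60.

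Away from the genes' own ends, most control regions also lacked a counterpart, in a share near that of other gene windows. Regions within 1 kb of an end of another protein-coding gene numbered 2 in H1C and 3 in control, and 2 of the 3 were kept. The remaining regions, called distal here, numbered 7 in H1C and 37 in control. Of these 37, 31 were in control only, against a background of 79.2%. The kept share was 16.2% (95% interval 6.19 to 32.0), against 20.8% (20.2 to 21.4) of distal regions in all gene windows. Their median control pileup of 24.0 was the same as that of distal regions in all gene windows. By position, 6 of 27 control regions that touched a member's gene body were kept and 4 of 21 in the flanks. No background by position was computed, so these counts are a description only.

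The Gfi1 window was dense in control and nearly empty in H1C. It held 1 region in H1C and 7 in control, or 0.916 and 6.41 regions per 100 kb, and the control density exceeded that of 89.2% of genes. At the start of Gfi1 (gene body at chromosome 5, 107716655 to 107725805) control had regions at 107725404 to 107725942, across the annotated start, with a pileup of 26, and at 107724789 to 107725070, with a pileup of 24. Neither was called in H1C. The one kept region lay 28504 bp from the lower end of the gene, the downstream side of this minus-strand gene, from 107687810. Its pileup was 26 in H1C and 40 in control (folds 4.43 and 6.14), a depth-scaled log2 ratio of -0.76 (95% interval -1.53 to -0.02). The summits of both libraries stood on the same base there. The other 4 control regions had pileups of 15 to 21, and 1 of them lay inside the neighbouring gene Evi5.

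Gfi1b (chromosome 2, 28609450 to 28621982) had no region of its own in the H1C list. In control a region at 28621808 to 28622058 covered the start shown above, with a pileup of 32, a fold of 5.54 and a −log10 q of 13.0, the strongest control-only gene-end region of the 8 genes. Control also had a pair of distal regions on the downstream side, with pileups of 22 and 25, and a region at the end of Gtf3c5, a transcription factor gene for RNA polymerase III, with a pileup of 32. None of these 4 was called in H1C. The 1 H1C region of the window lay at the end of Tsc1, which encodes a growth-restraining partner of tuberin. Its pileup there was 26 in H1C and 56 in control, a log2 ratio of -1.25 (95% interval -1.98 to -0.55), the lowest of the 10 kept regions. Going out to 100 kb, beyond the window, a further 3 regions in H1C and 9 in control were listed, with highest pileups of 31 in H1C and 62 in control.

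Myb had 1 region in the H1C window and 2 in control, a control density of 1.47 per 100 kb, below the median of 2.11 over all genes. Its start (gene body at chromosome 10, 21124930 to 21160984) was covered in control by a region at 21160812 to 21161069, with a pileup of 23, a fold of 3.60 and a summit 25 bp downstream of the start. It was not called in H1C. The kept region lay inside Ahi1, a gene of the primary cilium, 47290 bp from the nearer end of Myb. It had a pileup of 23 in H1C and 36 in control, a log2 ratio of -0.79 (95% interval -1.61 to 0.01), a difference within counting error. Enhancers of Myb are known in the interval upstream of the gene, which reaches beyond this window. In that direction, within 100 kb of Myb, H1C had no region and control had 2, with pileups of 28 and 16.

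Etv6 kept its promoter and had most of its other regions in control only. The window held 3 regions in H1C and 7 in control. In control a single region of 1106 bp, at chromosome 6, 134034888 to 134035993, spanned the start of Etv6 and one end of the neighbouring gene Gm46977, with a pileup of 46. In H1C the same span held 2 separate regions, 1 over the start with a pileup of 33 and 1 upstream with a pileup of 23. The log2 ratio of the higher H1C summit to the control summit was -0.62 (95% interval -1.31 to 0.06), within counting error. The upstream H1C summit, at 134035040, lay nearer the control summit, at 134035219, with pileups of 23 in H1C and 46 in control. The same counts, at the LSD1-CoREST gene Kdm1a, gave -1.14 (95% interval -1.93 to -0.39), wholly below 0. The reading at Etv6 thus depends on which H1C region is paired. The highest point of the 2 libraries lay 620 bp apart, upstream of the start in control and 139 bp downstream of it in H1C. Inside the gene, 184686 bp downstream of the start by the control summit, a region with a pileup of 19 in H1C and 36 in control was also kept (log2 ratio -1.06, 95% interval -1.95 to -0.22). The 5 other control regions, 4 of them in the gene body, had pileups of 17 to 30 and were not called in H1C.

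Ikzf1 had the most regions of the 8 genes in control, and the only gene-body regions it kept lay near an internal start and near its downstream end. The window (gene body at chromosome 11, 11684962 to 11772930) held 3 regions in H1C and 14 in control, or 1.60 and 7.45 per 100 kb, and the control density exceeded that of 93.4% of genes. The CG-rich start shown above was covered in control by a region at 11685684 to 11686378, with a pileup of 28, and had no region in H1C. A second annotated start lies at 11690177, and downstream of it, with summits 324 bp away in H1C and 255 bp away in control, both libraries had a region with pileups of 26 in H1C and 27 in control. The log2 ratio was -0.20 (95% interval -1.03 to 0.64). The fold was higher in H1C (4.09) than in control (2.83), and the local background was 5.60 in H1C and 8.90 in control.

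Further into Ikzf1, the strongest intragenic region of control had a counterpart in H1C. That region, at 11766149 to 11766439 in control, had a pileup of 31 in H1C and 49 in control (log2 ratio -0.80, 95% interval -1.50 to -0.12). A control region close by, at 11763219 to 11763733, with a pileup of 42 and a fold of 5.32, was not called in H1C. Of the 9 control regions touching the gene body 7 were in control only, with pileups of 22 to 42. Outside the gene, the highest pileup of all 8 windows belonged to the end of Fignl1, a gene for an AAA ATPase of recombination, with 36 in H1C and 65 in control (log2 ratio -0.99, 95% interval -1.62 to -0.39). Control alone had 4 more flanking regions, with pileups of 23 to 30, 1 of them inside Ddc.

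Ikzf2, the related Helios gene (chromosome 1, 69531207 to 69687351), had few listed regions in either library. H1C had no region in its window of 256.1 kb, and control had 2, both 33859 bp or more from the gene, with pileups of 21 and 16. No region of either list touched the gene body. The control density of 0.781 regions per 100 kb exceeded that of 27.5% of genes, against 93.4% for Ikzf1, and 4760 of the 21887 genes had no control region in their window.

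Satb1 kept its start and, with the full lists, was the one gene with a region in H1C only. Its window (gene body at chromosome 17, 51736187 to 51833290) held 3 regions in H1C and 4 in control. The start shown above lay in a region with a pileup of 29 in H1C and 42 in control, with folds of 4.42 and 6.01 (log2 ratio -0.68, 95% interval -1.41 to 0.04). A weak region inside the gene, at 51813616 to 51813895 in control, had pileups of 19 in both libraries and a log2 ratio of -0.14 (95% interval -1.14 to 0.86). The H1C-only region, at 51831326 to 51831928, had a pileup of 24 and a −log10 q of 5.48, with its summit 803 bp downstream of an internal start. A control region with a pileup of 35 and a fold of 6.29, 43255 bp upstream of the gene, and another of pileup 19 in the gene were not called in H1C.

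Zeb2 had 7 regions in control and none in H1C. The control regions of its window (gene body at chromosome 2, 44983512 to 45117442) had pileups of 14 to 44. The strongest lay in the gene at 45049280 to 45049648, with a pileup of 44, a fold of 6.94 and a −log10 q of 21.8, and the next lay 1528 bp beyond the downstream end, with a pileup of 36 and a fold of 7.42. At the upstream end of the gene body lay a region of pileup 16, and a region of pileup 24 covered an internal start. Of the 7462 genes with at least 5 control regions in the window, 4.19% had none called in H1C, and among the 8 genes this was so of 1 (Zeb2) of 5. The 1219 genes with exactly 7 control regions gave 3.36%. Zeb2 was singled out here after its values were seen, and windows of neighbouring genes share regions. Just outside the window, 55836 bp from Zeb2, the end of Gtdc1 had a pileup of 42 in H1C and 68 in control.

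The distance limits were close to deciding a few regions. Within 1 kb of a gene end, the farthest regions counted as own gene ends were those of Gfi1 (735 bp) and Ikzf1 (722 bp), both in control. Just beyond the limit lay the H1C-only region of Satb1 (1362 bp) and the control region downstream of Zeb2 (1528 bp). The farthest inside the window were the H1C region at Myb, 47454 bp from the gene (its control counterpart was at 47290 bp), and a control region within Ddc, 47411 bp from Ikzf1.

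Whether a control region was kept went with its pileup, here as over all gene windows. The 10 kept control regions had a median pileup of 41 (range 19 to 65) and the 38 control-only regions a median of 24.0 (14 to 44). Of the 9 regions with a pileup of 20 or less 1 was kept, and of the 23 from 21 to 30 again 1. Of the 9 from 31 to 40, 3 were kept, of the 6 from 41 to 60, 4, and the single region above 60 was kept. In the same steps the background called in control only was 91.7%, 86.8%, 66.3% and 25.6%. The kept share from 21 to 30, the step with the most regions, was 4.35% in the 8 windows and 13.2% over all gene windows. In each pileup step up to 60, the kept share in the 8 windows had an interval that included the share over all gene windows. A difference within a step was thus not detectable with this number of regions. An unlisted region is not an absent one: the lowest pileup in the lists was 14 in H1C and 12 in control.

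**Figure D2:**
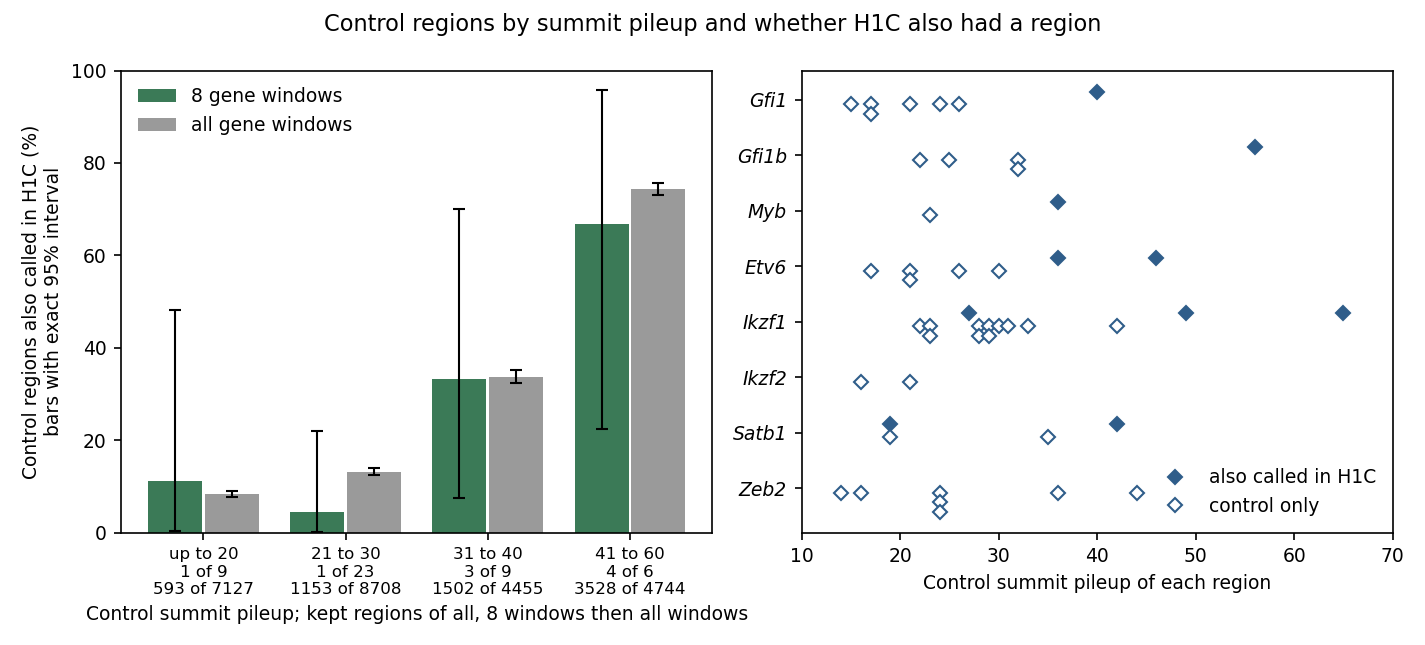
Left, percentage of control regions also called in H1C by control summit pileup, for the 8 gene windows (green) and all gene windows (grey), with exact 95% intervals and the counts under each step. Right, control pileup of each region by gene, filled where H1C also had a region: the strongest control-only regions, with pileups of 44 and 42, belong to Zeb2 and Ikzf1.

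At the 10 kept regions the pileup was lower in H1C, on the genome-background scale, by about the same factor as elsewhere. Summed over them, the pileup was 268 in H1C and 416 in control, a depth-scaled log2 ratio of -0.78 (95% interval -1.0 to -0.55). The median of the 10 ratios was also -0.78 and they ran from -1.25 at Tsc1 beside Gfi1b to -0.14 inside Satb1. Over the 10215 kept control regions of all gene windows the median was -0.80 (quartiles -1.02 and -0.55). All 10 ratios were below 0, against a background of 94.9%, and 5 had an interval wholly below 0, against 64.7%, or 56.0% among regions with control pileups in the same range. The weakest regions had the ratios nearest 0 here and in the background, whose median was 0.02 at control pileups up to 20 and -0.89 at 41 to 60. Ratios can be computed only where H1C had a called region, so low ratios of weak regions are missing from both medians. With the libraries scaled instead by the median local background of shared regions (0.869 for H1C over control), which includes the regions' own reads, the median was -0.43. On that scale 8 of the 10 ratios were below 0, against a background of 85.6%, while those near the internal start of Ikzf1 (0.15) and inside Satb1 (0.20) were above it. There 2 intervals were wholly below 0 (at Tsc1 and Fignl1), against a background of 29.1%, and those at Gfi1, inside Etv6 and at the intragenic region of Ikzf1 included 0. The ratio of the deposited folds was also below 0 at 8 of the 10, against a background of 91.3%, with 0.53 and 0.22 at the same regions of Ikzf1 and Satb1.

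**Figure D3:**
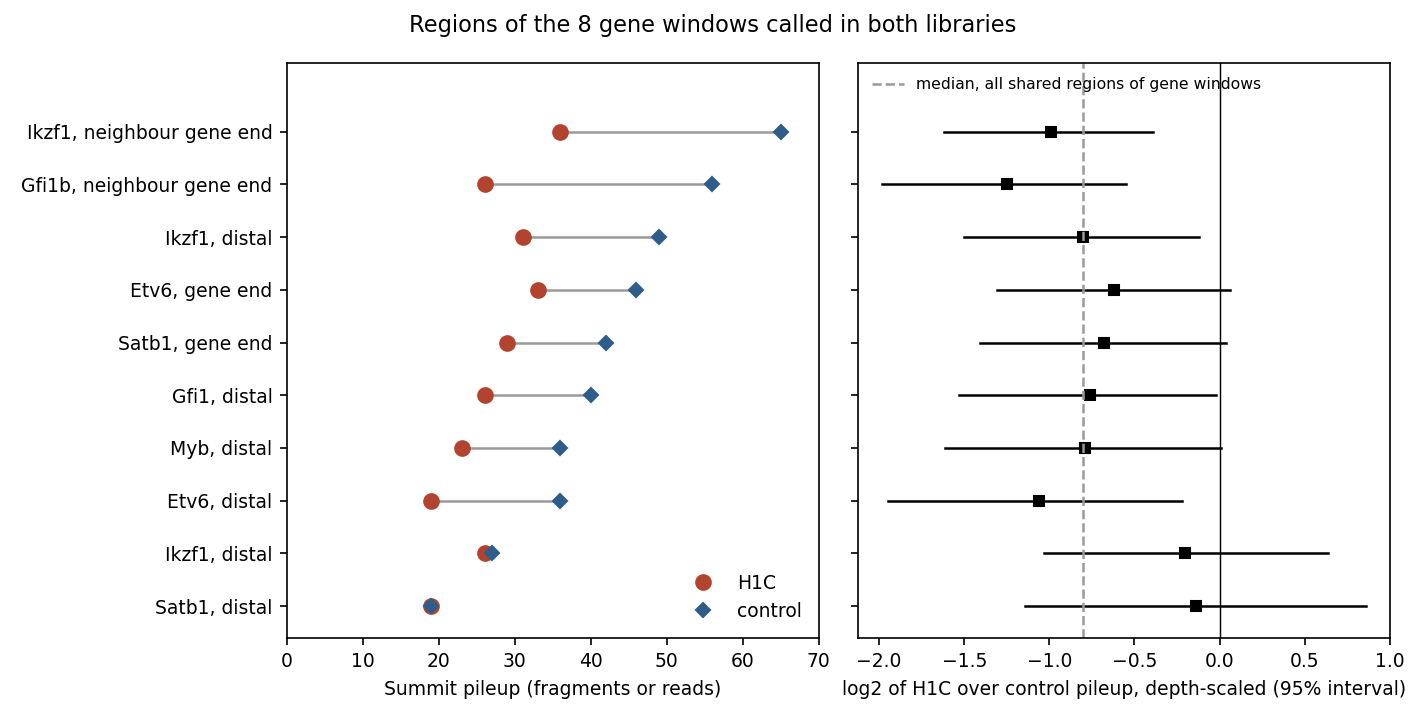
Left, summit pileup in H1C (red circles) and control (blue diamonds) at the 10 regions called in both libraries, ordered by control pileup. Right, log2 of the depth-scaled H1C over control ratio with exact 95% intervals (counting error only) and, dashed, the median of -0.80 over all gene windows: the ratios run from -1.25 to -0.14.

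Summits of kept regions mostly stayed in place. The median distance between the H1C and the control summit was 51.0 bp over the 10 regions (range 0 to 620), against 30.0 bp over all gene windows (quartiles 10.0 and 69.0). It was at most 200 bp at 9 of the 10, all but the Etv6 promoter, and at 93.0% of kept regions over all gene windows.

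Across annotated starts, 7 of the 8 genes had promoter windows in the sequence table, 16 in all, some of which overlap. H1C regions touched 2 of them (at Etv6 and Satb1) and control regions 8. Of those 8 windows 6 were touched in control only, against a background of 29.9% over 10424 windows. They include an internal start of Satb1, whose control region was itself kept. Its H1C counterpart began at 51832924, past the window edge at 51832897. Among windows with 40 or more CG, those of Ikzf1 (52 CG), Myb (40 CG) and that start of Satb1 (45 CG) were touched in control only. The background there was 27.7%. Of all windows touched in control, 79.1% with 20 to 39 CG were also touched in H1C, against 32.0% with 9 or fewer. The part of CG count was not tested. The 3 touched windows with 16 to 19 CG were those of Gfi1 and an internal start of Zeb2, both in control only, and of Etv6, in both libraries, where the background for 10 to 19 CG was 33.4%. The windows with 9 or fewer CG that a control region touched had a background of 68.0%. Of the 2 such windows of the members, that of Gfi1b was in control only and that of Satb1 in both. The members' other windows with so few CG were touched in neither library.

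Most relatives and cofactors of the 8 genes had a gene-end region in both libraries. Their median control pileup was 53.5, against 28.0 over the 7 members and 49.0 over all genes with a control gene-end region. Of 37 listed genes, 30 had a gene-end region in H1C and 34 in control, and 4 of the 34 were in control only, against the background of 29.0%. With gene ends widened to 2500 bp, 31 of 34 genes were kept. Family relatives had 5 gene-end regions in each library, those of Ikzf5, Mybl1, Mybl2, Zeb1 and Etv3. Ikzf3 and Ikzf4 had none in either. The pileup at Ikzf5 was 50 in H1C and 75 in control (log2 ratio -0.73, 95% interval -1.27 to -0.19), and at Mybl2 34 in H1C and 70 in control (-1.18, -1.82 to -0.57). At Mybl1, a germ cell relative of Myb, it was 42 in H1C and 50 in control (-0.39, -1.02 to 0.23), within counting error.

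The LSD1-CoREST genes, whose products work with Gfi1 and Gfi1b, had gene-end regions at 6 genes in H1C and 8 in control. Rcor2 and Phf21a were in control only, with pileups of 22 and 28. Rcor1, the core scaffold, had a pileup of 54 in H1C and 115 in control (log2 ratio -1.23, 95% interval -1.73 to -0.75), Hmg20b had 70 in H1C and 109 in control, and the deacetylase gene Hdac1 had 43 in H1C and 76 in control. Of the NuRD genes, partners of Ikaros, 9 had a gene-end region in H1C and 10 in control. Mta1 was in control only, with a pileup of 19, and Chd3 had none in either library. The strongest in control were Mbd3 (67 in H1C and 117 in control), Gatad2a (77 in H1C and 109 in control) and Gatad2b (59 in H1C and 102 in control).

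Among the SIN3 and NCOR corepressor genes, 6 had a gene-end region in H1C and 7 in control. Sin3a, the scaffold of the SIN3 complex, was in control only, with a pileup of 57. Tbl1xr1 had 38 in H1C and 64 in control, Hdac3 had 40 in H1C and 59 in control, and Ncor1 had 26 in H1C and 49 in control. Both CtBP genes were kept, Ctbp1 with 32 in H1C and 49 in control and Ctbp2 with 19 in H1C and 31 in control. Both coactivator genes of Myb were kept, Ep300 with 46 in H1C and 66 in control and Crebbp with 20 in H1C and 57 in control. The log2 ratio at Crebbp, -1.65 (95% interval -2.47 to -0.90), was the lowest of the 30 kept relatives and cofactors, whose median was -0.71, against -0.85 over the kept genes of the whole annotation.

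**Figure D4:**
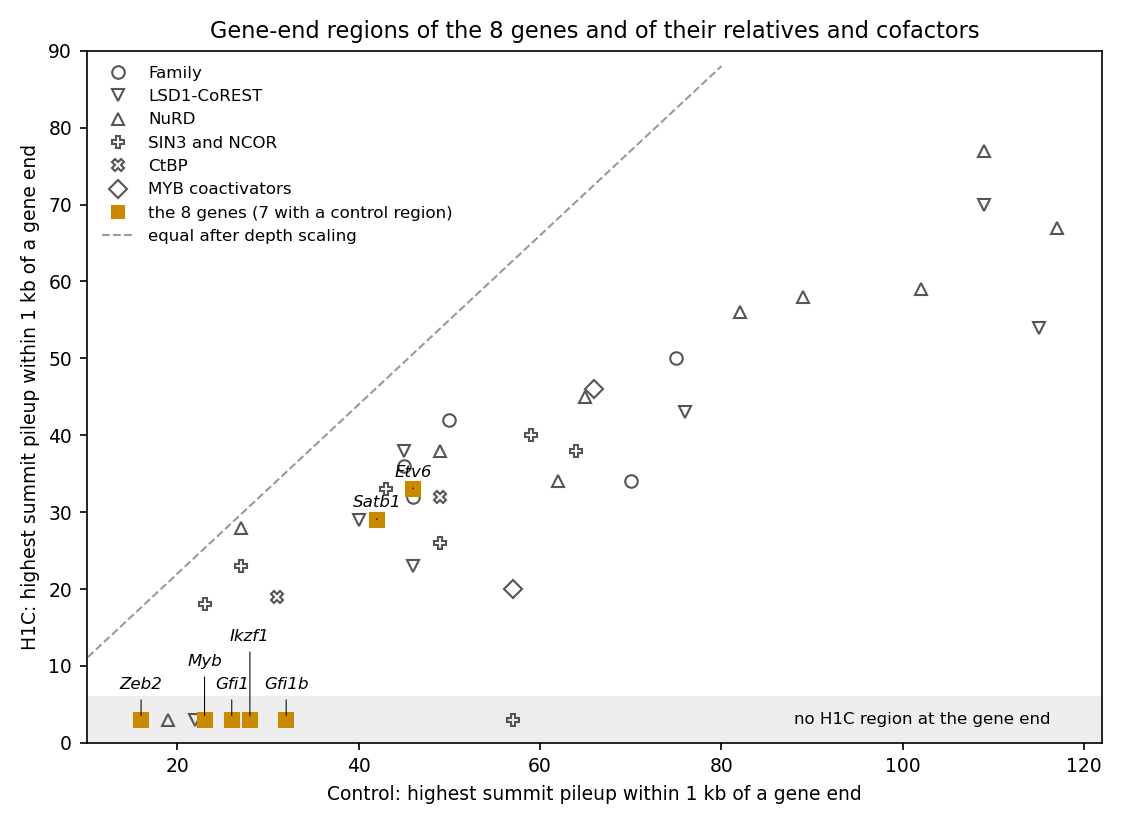
Highest summit pileup within 1 kb of a gene end in H1C (vertical axis) against control (horizontal axis), for the 8 genes (squares, 7 with a control region) and for their relatives and cofactors by list. Points in the grey band have no H1C gene-end region: they are 5 of the 8 genes, with control pileups of 16 to 32, and Sin3a, Rcor2, Phf21a and Mta1.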

How the data were processed

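ATAC-seq regions were compared between 1 library of H1C-transduced and 1 library of control hematopoietic stem cells, grouped by their treatment labels. The submitters' processing notes name mm10 as the build and MACS2, featureCounts, Picard, Bowtie2 2.2.9 and Trim Galore 0.4.4 as tools. Settings, duplicate removal and correction for the transposase offset, which affect summit heights and positions, are not given in the sources used here. The authors deposited 1 list of regions per library, so calls were not made on pooled samples. The deposited fold is a ratio of summit pileup to local background, and the deposited p-values and q-values, both as −log10, come from the peak caller. The authors' score is −log10 q times 10 without its decimals in 99.96% of H1C and 99.97% of control entries.

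The lists give no read totals, so the depth is unknown. Pileup and local background were solved from the fold and −log10 p under a Poisson law, and accepted where the pileup was whole within a relative tolerance of 0.0001 (13156 of 13156 H1C and 32005 of 32005 control entries). The code was tested on simulated data. The lowest local background of a list served as its genome background. Gene coordinates came from a RefSeq table of GRCm38.p6. A gene end is either coordinate of a gene body. Where several H1C regions overlapped a control region the highest was used. Intervals are exact, Clopper-Pearson for shares and conditional binomial for ratios, and cover counting error only, since amplified fragments are not independent molecules. With 1 library per group there was no test and no p-value.

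The 8 genes and the lists of relatives, cofactors and markers were chosen with earlier results of these data known. All 37 relatives and cofactors and 23 markers used matched the annotation, and 2 further listed genes are not reported here. Named were all regions at the genes' ends, the strongest kept, control-only and H1C-only regions of each window, cofactor genes with a gene-end region in 1 library, and up to 3 kept genes per list by control pileup. Further regions, the kept genes Etv3 and Zeb1 and the regions added by a 100 kb flank were named after their values were seen. Calculations used scipy 1.17.1, numpy 2.4.6 and pandas 2.3.3 in Python 3.11.15, with figures drawn in matplotlib 3.10.9.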

Additional observations from a re-analysis of the deposited data

How the results depend on the processing

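No paired analysis was possible because there was 1 library per group. Across 10 results, 33 alternatives were run, of which 28 stayed within the value's interval (counts within 1.5 times) and 5 moved. The sign of the median was not turned, which was possible only for the log2 pileup ratio. With gene bodies and 1 kb alone, the control regions numbered 27. With lists of equal length by −log10 p, 50.0% of the 16 control regions left were kept. The median log2 pileup ratio was -0.43 with the local background of shared regions as the scale and -0.41 as a ratio of the deposited folds. The median summit distance was 33.5 bp with 50% reciprocal overlap, which leaves 8 pairs and drops the Etv6 promoter. For the other moves the cause was not tested. The kept share of control regions was 16.7 to 22.2% under the other alternatives, and 2 gene-end regions were kept under each gene-end window and the stricter threshold (−log10 q of at least 5). The small number of regions limits every share of the 8 windows, and 1 library per group leaves the spread between samples unknown.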
